A study of Mus musculus with 20 samples.

Results

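The left ventricle of mice fed 1 of 4 statins was compared with that of mice fed plain chow, taking all 16 statin arrays together against the 4 control arrays of the 20 in the series. The measure was the mean of the 4 statin group means minus the control mean of log2(signal + 16), where the signal is the MAS5 intensity of an Affymetrix probe set and 16 damps the noise of dim ones. The genes described are those whose difference had the same sign with every statin. All mice were male C57BL/6J, came in at 6 weeks of age, had 2 weeks to settle and were then followed for 4 weeks, with 4 mice and 4 arrays per group. Powdered tablets mixed into chow supplied 4.5 mg/kg/day of pitavastatin calcium, 21.0 mg/kg/day of pravastatin sodium, 10.9 mg/kg/day of rosuvastatin calcium or 11.4 mg/kg/day of atorvastatin calcium hydrate, and control mice had the chow alone. The doses differed between statins, so their values are set side by side and are no ranking of the compounds. Hearts were taken under ether, and the RNA came from the whole left ventricle, in which fewer cells of a type and less RNA per cell cannot be told apart.

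Statins block HMG-CoA reductase, the rate-limiting enzyme of the mevalonate pathway. That pathway feeds cholesterol synthesis and also makes the farnesyl and geranylgeranyl lipids that anchor many signalling proteins to membranes. In cells short of sterol, SREBP2 moves to the nucleus and turns on the genes of cholesterol synthesis and uptake, a response best known in liver, the main site of statin uptake. The heart makes little cholesterol and draws most of its energy from the oxidation of fatty acids.

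Markers of heart muscle were bright, but so were those of other cell types. All 13 listed cardiomyocyte markers were among the brighter probe sets, as were all 12 of fibroblasts, 12 of endothelium and 13 of macrophages. Of the markers on the array, 2 of 10 for lymphocytes, 3 of 11 for skeletal muscle and 3 of 6 for the atrium were. The summed signal of the 3 atrial ones was 4077 to 15664 in statin arrays and 7043 to 9301 in control arrays. Whether atrial tissue was present was not tested. Array brightness varied within groups: the median signal ran between 41.7 in rosuvastatin 3 and 144 in atorvastatin 2, although every array had the same trimmed mean of 500. The mean median log2 signal was 6.37 ± 0.39 in statin arrays (SD, n = 16) and 6.56 ± 0.26 in control arrays (SD, n = 4), with p = 0.370 in a two-sided exact permutation test over the 4845 ways to choose 4 arrays. The share of probe sets under a signal of 50 was 38.0% in statin arrays and 35.1% in control arrays (exact permutation p = 0.437). Among the 5 array measures, the log2 3′/5′ ratio of the Gapdh control probe set was 0.73 in statin arrays and 0.72 in control arrays, and the exact permutation p of the 5 measures, Benjamini-Hochberg adjusted, was 0.837 or more.

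No probe set passed the test of the pooled comparison. In limma, at an adjusted p of 0.05, 0 of 22518 tested probe sets (0%) were called, and the smallest adjusted p was 0.620. An unadjusted p under 0.05 was reached by 686 probe sets (3.05%), of which 482 (2.14%) were higher and 204 (0.906%) lower with statins. The median probe set had a 95% interval of ± 0.28 on the log2 scale, which is that of a single test before any adjustment. Passing the adjusted test took more: differences of 0.67 for Cpox and -0.73 for Fbxo4 did not pass. With 4 control mice, a shift that was not called is not shown to be absent. All genes below are therefore given as leading values that did not pass.

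The 4 statins shared a sign at 7565 probe sets (33.6%), with 2937 (13%) higher and 4628 (20.6%) lower than control with each statin. All 4 differences use the same control mice, and the sign is shared wherever the control mean is the lowest or the highest of the 5 group means. The split of these probe sets moved with the scaling: 38.8% were higher as deposited, 51.8% after quantile normalization and 79.6% after centring each array on its median. Centring shifted the median difference of all tested probe sets by 0.15 on the log2 scale, and quantile normalization shifted it by 0.02. With a difference of at least 0.25 for every statin, 88 of the 22518 tested probe sets were higher and 383 lower as deposited. This count was not repeated under the other scalings. The split was the other way among shared-sign probe sets with an unadjusted p under 0.05 in limma, with 395 higher and 189 lower.

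In 7 probe sets (0.0311%) the 16 statin arrays did not overlap the 4 control arrays. Statin arrays lay above control arrays for 4 of them (0.0178%), those of Cul5, Mtch2, Cdc42se1 and Qk. They lay below for 3 (0.0133%), those of Ebpl, Fbxo4 and Phka1. In any probe set, 1 of the 4845 choices of 4 arrays, a share of 0.000206, lies below all other arrays, and 1 lies above. The shares seen on either side were no larger, so a lack of overlap does not single these genes out. Cdc42se1, which binds the small GTPase Cdc42, and Qk, an RNA-binding splicing regulator, fall outside the naming rule and were picked once their values were known. Their pooled log2 differences were 0.36 and 0.31.

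The 12 higher and 12 lower genes with the smallest unadjusted p among those with a shared sign ranged between 0.36 and 0.67 above control and between 0.29 and 0.73 below it on the log2 scale, with adjusted p of 0.620 to 0.999 in limma. Those values chose the genes, so the shared sign is a description. After centring the ranges were 0.52 to 0.82 and -0.58 to -0.14. The next in line were Slf2 and Gsk3b above control, at 0.35 and 0.45, and A830082K12Rik and Mcm9 below it, at -0.57 and -0.59, with unadjusted p of 0.00111, 0.00112, 0.00808 and 0.00891 in limma. Just inside stood Clcn3 and Atp5c1, with unadjusted p of 0.00111 and 0.00787 in limma.

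**Figure D1:**
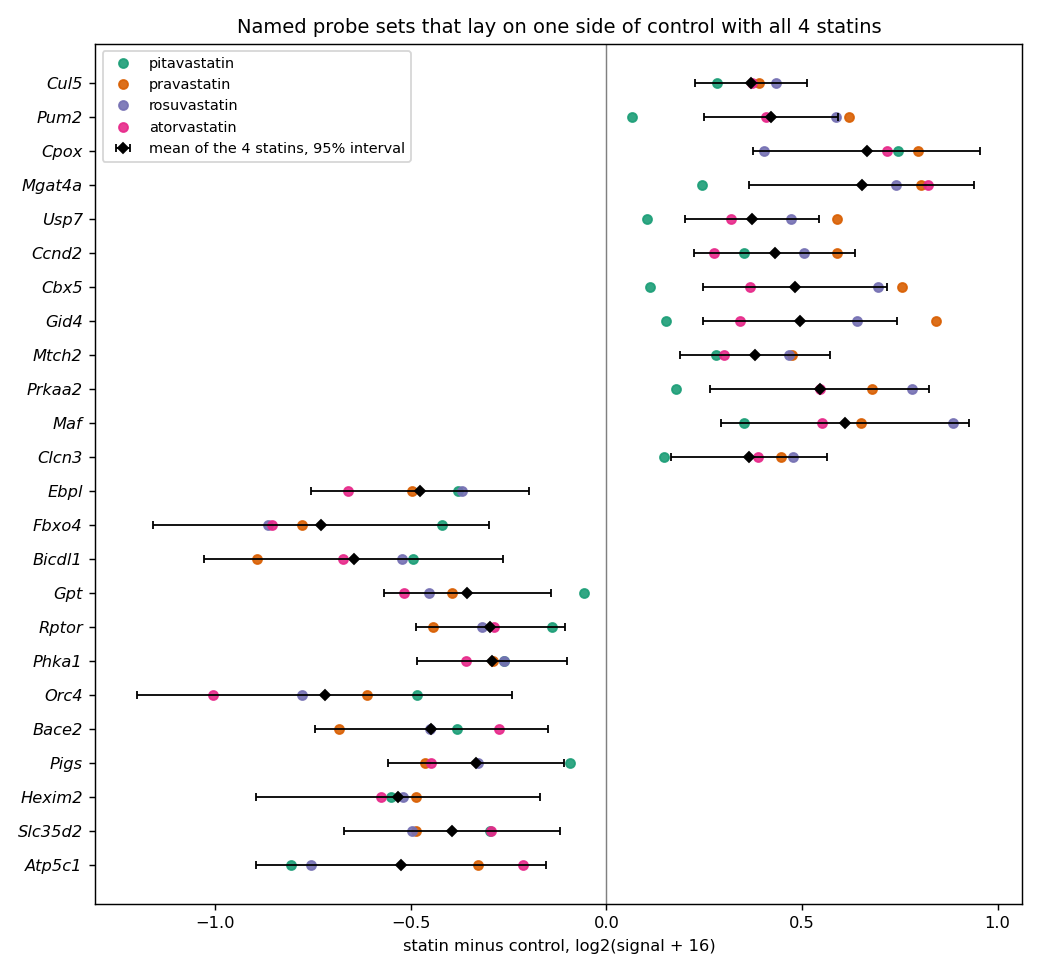
Log2 difference from control with each statin (coloured points) and for the mean of the 4 statins (black diamonds with the 95% interval from limma) for the 12 higher and 12 lower named probe sets. No point crosses 0, since the genes were chosen for a shared sign. Pitavastatin lies nearest to 0 in 10 of the 12 higher and 7 of the 12 lower genes, and its share over all tested probe sets was not counted.

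Among the higher genes, Cul5 is the scaffold of a cullin-RING ubiquitin ligase, and its probe set had the smallest p of all. Its log2 signal in statin arrays was 9.75 at the lowest, 9.91 at the median and 10.08 at the highest, against 9.69, 9.53, 9.50 and 9.49 in control arrays. In linear signal, the brightest control array read 810 and the dimmest statin array 845. The statin and control arrays were thus apart, with control 1 the nearest to the statins. The pooled difference was 0.37 ± 0.07 (SE), a 1.29-fold higher value, and pitavastatin stood at 0.28, pravastatin at 0.39, rosuvastatin at 0.43 and atorvastatin at 0.37 (adjusted p = 0.620, limma).

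Usp7, a deubiquitinase that stabilises Mdm2 and other proteins, and Gid4, the substrate receptor of the GID/CTLH ubiquitin ligase, also stood in this group. Usp7 was 0.37 ± 0.08 (SE) above control, with 13 of 16 statin arrays above all control arrays. Gid4 was 0.49 ± 0.12 (SE) above control, with 12 of 16. Both had their smallest difference with pitavastatin, 0.10 for Usp7 and 0.15 for Gid4, and their largest with pravastatin, 0.59 and 0.84.

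Mtch2, an outer mitochondrial membrane protein that takes part in the insertion of membrane proteins and in apoptosis, had log2 signals in statin arrays of 10.14 at the lowest, 10.52 at the median and 10.69 at the highest. The control arrays read 9.98, 10.14, 10.13 and 10.06, so the groups met at their edges without crossing. The pooled difference was 0.38 ± 0.09 (SE), with 0.28, 0.47, 0.47 and 0.30 for pitavastatin, pravastatin, rosuvastatin and atorvastatin (adjusted p = 0.999, limma). Cpox, the mitochondrial enzyme that makes protoporphyrinogen in haem synthesis, had the largest difference of the 12, at 0.67 ± 0.14 (SE), or 1.59-fold. Its statin arrays had log2 signals of 6.79 at the lowest, 7.29 at the median and 7.62 at the highest, against 6.48, 6.63, 6.83 and 6.42 in control arrays, and 15 of 16 statin arrays lay above all control arrays. This probe set is dim, at signals of 69.9 to 97.6 in the control arrays, and the other Cpox probe set, which was bright, lay at -0.02.

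**Figure D2:**
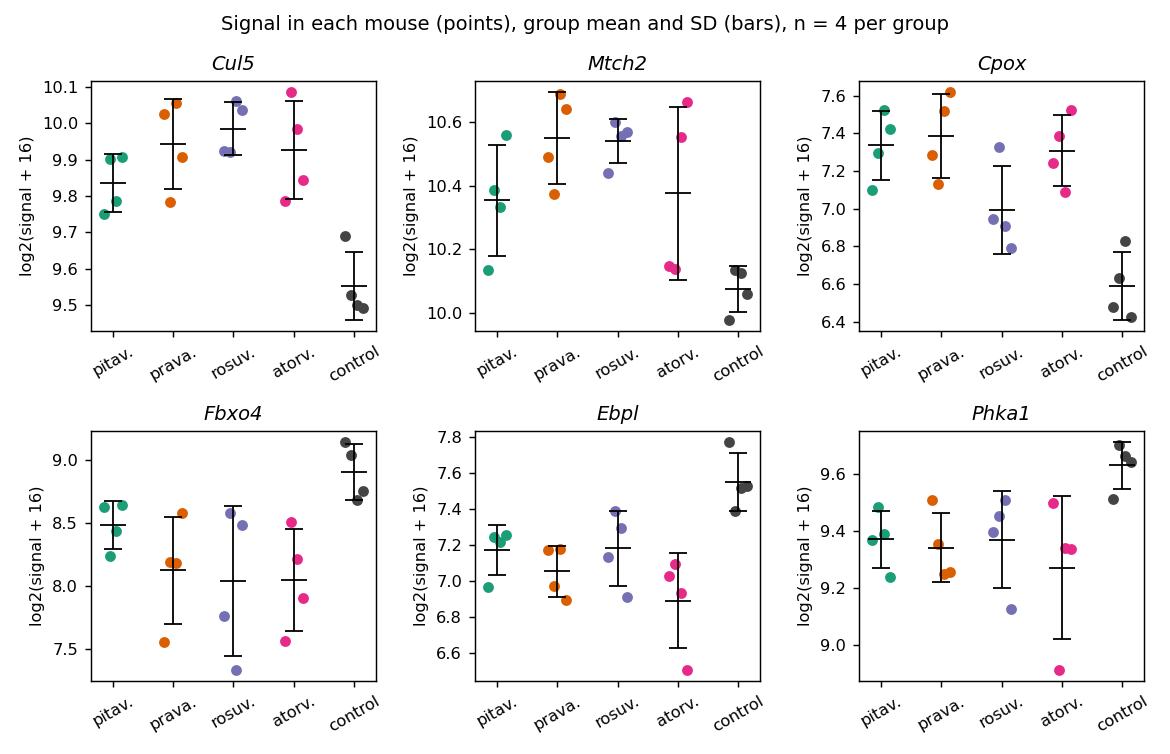
Log2(signal + 16) in each mouse (points) for 3 higher and 3 lower genes, with the mean and SD of each group of 4 (black bars), statin groups at the left and control at the right. The statin and control arrays do not overlap for Cul5, Mtch2, Fbxo4, Ebpl and Phka1, and 15 of 16 statin arrays exceed all control arrays for Cpox.

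Pum2, an RNA-binding repressor of translation, had log2 signals of 9.57, 10.07 and 10.33 at the lowest, median and highest statin array, against 9.85, 9.64, 9.32 and 9.43 in control arrays. Its difference was 0.42 ± 0.08 (SE), with 0.07 for pitavastatin and 0.62, 0.59 and 0.41 for pravastatin, rosuvastatin and atorvastatin. The groups overlapped, with pitavastatin arrays and atorvastatin 2 below control 1. Pum2 passed the limma test when control 1 was left out, at 0.52 (adjusted p = 0.0139), or when arrays were weighted (adjusted p = 0.0318). Cbx5, which encodes the heterochromatin protein HP1α, was 0.48 ± 0.11 (SE) above control. Maf, a leucine zipper transcription factor of macrophages and other lineages, was 0.61 ± 0.15 (SE) above control with 14 of 16 statin arrays above all control arrays.

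Prkaa2 encodes the catalytic AMPK α2 subunit, the main one of heart and skeletal muscle, and AMPK is a sensor of low energy. Its statin arrays read 8.18 at the lowest, 8.84 at the median and 9.02 at the highest, and its control arrays 8.79, 8.01, 8.01 and 7.87. Control 1 stood within the statin range and the other control arrays below all of it. The difference was 0.55 ± 0.13 (SE), and without control 1 it was 0.75 and passed the limma test (adjusted p = 0.0136). Ccnd2, a D-type cyclin, was 0.43 ± 0.10 (SE) above control, Clcn3, a chloride/proton exchanger of endosomes, 0.36 ± 0.10 (SE), and Mgat4a, a Golgi enzyme that branches N-glycans, 0.65 ± 0.14 (SE).

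Of the lower genes, Fbxo4, Ebpl and Phka1 had no statin array within the control range. Fbxo4 is an F-box protein that in cultured cells directs cyclin D1 to degradation. Its log2 signals in statin arrays were 7.34 at the lowest, 8.22 at the median and 8.64 at the highest, against 9.14, 9.04, 8.68 and 8.75 in control arrays. Its difference of -0.73 ± 0.21 (SE) made it 1.66-fold lower, with -0.42 for pitavastatin, -0.78 for pravastatin, -0.87 for rosuvastatin and -0.86 for atorvastatin (adjusted p = 0.999, limma). Ebpl is a paralogue of the sterol isomerase Ebp, read here by a dim probe set with a mean log2 signal of 7.17. Its statin arrays had 6.51, 7.12 and 7.39 at the lowest, median and highest, against 7.77, 7.39, 7.52 and 7.53 in control arrays, so that the lowest control array only just cleared the highest statin array. The difference was -0.48 ± 0.13 (SE), whereas Ebp itself, the isomerase of cholesterol synthesis, lay at 0.01.

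Phka1 is the muscle α subunit of phosphorylase kinase, which starts glycogen breakdown. Its statin arrays read 8.91, 9.36 and 9.51 at the lowest, median and highest and its control arrays 9.51, 9.70, 9.66 and 9.64, with control 1 next to the statins. The difference was -0.29 ± 0.09 (SE) and nearly even, at -0.26, -0.29, -0.26 and -0.36 for pitavastatin, pravastatin, rosuvastatin and atorvastatin. Rptor encodes raptor, the subunit that defines the growth kinase complex mTORC1. It had statin values of 8.18, 8.54 and 8.78 at the lowest, median and highest, against 8.73, 8.91, 8.84 and 8.76 in control arrays, and 15 of 16 statin arrays lay below all control arrays. Its difference was -0.30 ± 0.09 (SE). Gpt, the alanine aminotransferase that links alanine to pyruvate, was at -0.36 ± 0.10 (SE), with -0.06 for pitavastatin.

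Orc4, a subunit of the origin recognition complex, was at -0.72 ± 0.23 (SE), and its control arrays spread widely, at 8.11, 7.10, 7.13 and 7.79. Bicdl1, an adaptor of dynein transport, was at -0.65 ± 0.18 (SE), Hexim2, an inhibitor of the elongation factor P-TEFb, at -0.53 ± 0.17 (SE), and Bace2, a protease related to β-secretase, at -0.45 ± 0.14 (SE). Hexim2 was the most even of the 24, at -0.55, -0.49, -0.52 and -0.58 with pitavastatin, pravastatin, rosuvastatin and atorvastatin. Slc35d2, a Golgi nucleotide sugar transporter, was at -0.39 ± 0.13 (SE), Pigs, a subunit of the transamidase that attaches GPI anchors, at -0.33 ± 0.11 (SE), and Atp5c1, the γ subunit of mitochondrial ATP synthase, at -0.53 ± 0.18 (SE).

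For the 12 higher genes the brightest other probe set gave a smaller difference. Each of these genes had several tested probe sets, and in 12 of 12 the named one was not the brightest. The brightest other probe set of these genes lay between -0.09 and 0.20, with a median of 0.07, and 1 of them, that of Usp7 at 0.20, had an unadjusted p under 0.05 (0.00528, limma). Of the 36 other probe sets, 26 were above control and 12 above it with every statin. Prkaa2 had a second probe set at 0.33 and Maf one at 0.41, while their brightest others were at -0.03 and 0.20. Of the 12 lower genes, 7 had a single tested probe set, Fbxo4, Ebpl and Rptor among them. For the other 5 the brightest other probe set lay between -0.10 and 0.38. In 3 of these 5, Gpt, Phka1 and Bace2, the named probe set was itself the brightest. The other Gpt probe set, at 0.38 ± 0.27 (SE), was on the other side of control from the named one at -0.36. It was dim, with a mean log2 signal of 6.64 against 9.04 for the named one. The named Atp5c1 probe set was dim, and the brightest one of that gene was at -0.09. Whether the probe sets of a gene read different transcripts was not tested.

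**Figure D3:**
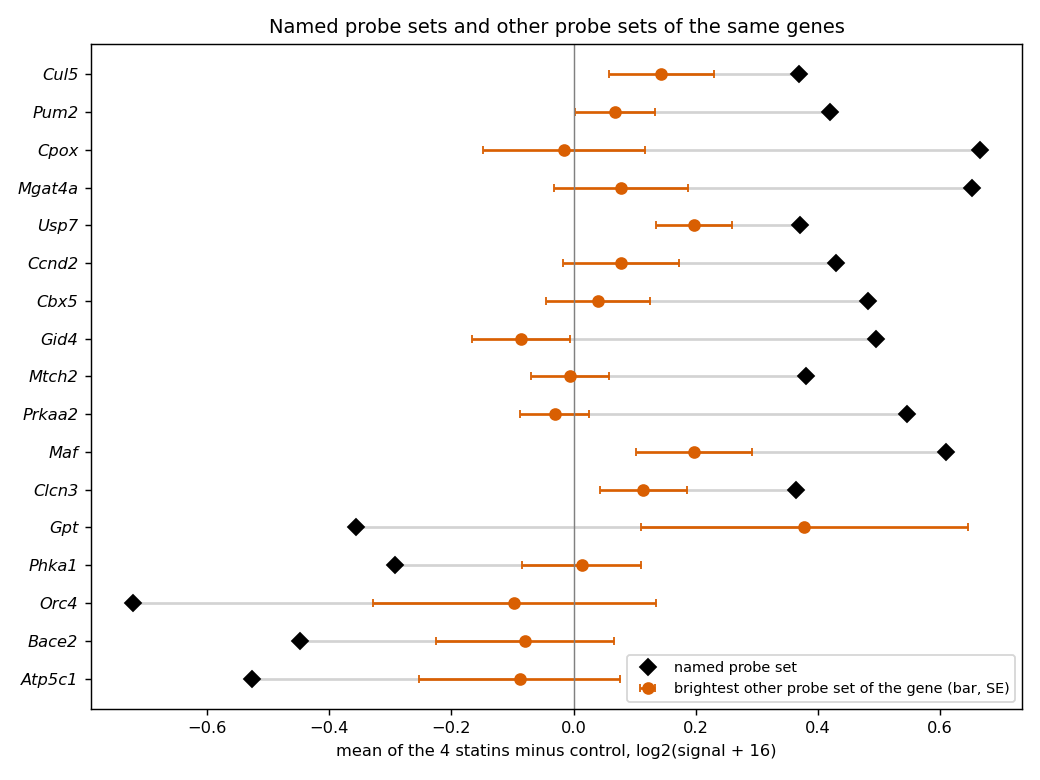
Log2 difference between the mean of the 4 statins and control for each named probe set (black diamonds) and for the brightest other tested probe set of the same gene (orange points with SE), for the 17 named genes with several. The orange points of the 12 higher genes lie between -0.09 and 0.20, all closer to 0 than the named probe sets.

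The 4 statin groups were also set against each other. The moderated F test over the 4 statin means called 0 of 22518 probe sets (0%), while 1706 (7.58%) had an unadjusted p under 0.05, with a smallest adjusted p of 0.101 in limma. Among the 24 named genes, 6 of the higher and 3 of the lower had an unadjusted p under 0.05 in this test. The smallest were those of Pum2, Cbx5, Gid4 and Usp7, each of which had its smallest difference with pitavastatin. Cul5, Hexim2 and Phka1 were among the more even ones. A p above the threshold does not show that the statins acted alike.

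Single control mice weighed heavily. Control 1 was the control array nearest to the statins in 7 of the 12 higher and 5 of the 12 lower genes. Some control array is always the nearest, and the share of control 1 over all tested probe sets was not counted. Without it, 9 probe sets passed the limma test, all above control: those of Med1, Ryr2, Atxn1, Prkaa2, Gsk3b, Pum2, Zfp871, Psmd11 and Reep3. Of these, Med1, Atxn1, Psmd11 and Zfp871 were not above control with every statin, and 7 were named only once their values were known. Ryr2, the calcium release channel of the sarcoplasmic reticulum, was at 0.48 with all control arrays in use and at 0.05 with pitavastatin. That probe set was not its brightest. Read by their brightest probe sets, the 13 cardiomyocyte markers, Ryr2 among them, lay at 0.15 or below. Med1, a Mediator subunit that meets nuclear receptors, was at 0.50 in the probe set that passed and at -0.07 in its brightest one. Leaving out any other single array gave 0 calls. Without the dimmest and the brightest array, rosuvastatin 3 and atorvastatin 2, the 12 higher genes lay between 0.35 and 0.68 and the 12 lower between -0.71 and -0.27, again with 0 calls. Adjusted for array brightness, as a covariate, the ranges were 0.32 to 0.70 and -0.59 to -0.30.

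The mevalonate genes, the direct target pathway, gave no value past the test. Lists of genes were read with each gene's brightest probe set, over 11229 genes of which 50.3% lay above control and 49.7% below, with a median of 0.00, and 320 (2.85%) had an unadjusted p under 0.05, 216 of them (1.92%) above and 104 (0.926%) below control. With every statin, 13.7% of these genes were above and 15.9% below control. Of the 7 measured genes between acetoacetyl-CoA and squalene, 3 lay above and 4 below control, 0 had an unadjusted p under 0.05, and the median was -0.10, or 0.05 after centring and 0.02 without control 3. After centring, which adds 0.15 to every pooled difference, all list medians given here lay above 0, so a list is best read against the median of all probe sets. Hmgcs1, the synthase that makes HMG-CoA, read 12.58, 12.88 and 13.31 at the lowest, median and highest statin array, against 12.90, 12.69, 12.92 and 12.90 in control arrays. The groups overlapped fully, and the difference was 0.04, with a 95% interval of -0.14 to 0.22 and a value of -0.01 without control 2. Idi1, the isopentenyl diphosphate isomerase, was at -0.21 ± 0.10 (SE), with 0.00 for pitavastatin and -0.19, -0.30 and -0.34 for pravastatin, rosuvastatin and atorvastatin. Fdps, the farnesyl diphosphate synthase, was at -0.25 ± 0.15 (SE), with 0.01 for pitavastatin.

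The Hmgcs1 promoter is shown because that gene is a textbook target of SREBP2. It is the RefSeq sequence of GRCm38.p6, chr13:119690101-119690350, plus strand, covering the 250 bases before the annotated start. Capitals mark the letters TCACCCCA, a core of the sterol response element, searched on both strands.
Hmgcs1: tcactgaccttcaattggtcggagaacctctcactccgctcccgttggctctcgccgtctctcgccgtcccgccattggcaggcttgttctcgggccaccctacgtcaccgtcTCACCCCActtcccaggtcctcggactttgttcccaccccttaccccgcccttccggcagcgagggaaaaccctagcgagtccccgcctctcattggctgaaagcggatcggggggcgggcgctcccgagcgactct
The match begins 137 bases before the start. In windows of 300 bases, 1.56% of 32851 RefSeq promoters held these letters, as did 1 of the 5 mevalonate genes with a promoter entry, 0 of the 7 later sterol genes and 1 of the 9 genes of sterol sensing and uptake, Srebf2. A gene counts here if any of its windows matches, so the gene counts and the percent of windows are not like measures. A match is a string of letters and no measure of binding.

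Later sterol genes and sterol sensors also lay near control. Of the 8 measured genes after squalene, 5 lay above and 3 below control with a median of 0.02 and 0 with an unadjusted p under 0.05. Msmo1, the C4-methylsterol oxidase, was below control with every statin, at -0.11, -0.10, -0.25 and -0.41 for pitavastatin, pravastatin, rosuvastatin and atorvastatin, and its pooled value was -0.11 without control 4. Cyp51, the lanosterol demethylase, was above it with every statin, at 0.02, 0.25, 0.09 and 0.17, with 0.09 pooled without control 4. Sqle, the squalene epoxidase, was at -0.01 with a 95% interval of -0.39 to 0.38, and leaving out single arrays placed it between -0.11 and 0.13. Among 12 genes of sterol sensing and uptake, 5 lay above and 7 below control. Srebf2, which encodes SREBP2, was above control with every statin, at 0.24 ± 0.15 (SE) and at 0.16 without control 1. Insig1, an anchor of SREBP, was at -0.07 ± 0.11 (SE), with 0.01 without control 1 and -0.18 without control 4.

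Among single genes tied to protein prenylation, Rhob lay above control with every statin. It encodes a short-lived protein that can carry either prenyl group, and its transcript is a known marker of statin exposure in cultured cells. It read 11.56, 11.87 and 12.06 at the lowest, median and highest statin array, against 11.68, 11.85, 11.59 and 11.54 in control arrays, and 9 of 16 statin arrays lay above all control arrays. The difference was 0.18 ± 0.07 (SE, unadjusted p = 0.0190, adjusted p = 0.999, limma), with 0.09, 0.23, 0.29 and 0.12 for pitavastatin, pravastatin, rosuvastatin and atorvastatin. Pggt1b, the β subunit of the enzyme that adds geranylgeranyl groups, was at 0.12 ± 0.07 (SE) and above control with every statin, with 0.07 without control 4, and Icmt, which methylates prenylated proteins, was at 0.15 ± 0.08 (SE) with -0.05 for atorvastatin. Nos3 and Klf2, flow-regulated genes that statins raise in cultured endothelium, were at -0.02 ± 0.13 (SE) and 0.14 ± 0.13 (SE). Nos3 was at -0.09 without control 3 and 0.10 without control 4, and Klf2 at 0.08 without control 3 and 0.23 without control 2.

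Clock output genes held some of the largest list values. The molecular clock is a loop in which the CLOCK or NPAS2 protein pairs with BMAL1, encoded by Arntl, and binds E-boxes of its targets. Those include the PAR bZIP factors Dbp, Tef and Hlf, the Per and Cry repressors, and Nr1d1 and Nr1d2, whose products repress Arntl, Npas2 and Nfil3 at ROR elements. Of 15 measured clock genes, 8 lay above and 7 below control, 4 had an unadjusted p under 0.05 and 0 were called. The list median was 0.09, or -0.01 without control 1. Relative to the median of all tested probe sets it was 0.11 as deposited, 0.07 after quantile normalization and 0.11 after centring. The mice were kept on a light and dark cycle, and the hour at which each heart was taken is not given in the sources used here.

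Dbp read 10.15 at the lowest statin array, 11.27 at the median and 12.30 at the highest, against 10.18, 10.52, 10.53 and 11.14 in control arrays. The groups overlapped, with control 4 the highest of the control arrays and control 1 the lowest. The difference was 0.72 ± 0.27 (SE, unadjusted p = 0.0147, adjusted p = 0.999, limma), with 0.40, 0.61, 0.86 and 1.00 for pitavastatin, pravastatin, rosuvastatin and atorvastatin. Tef was at 0.25 ± 0.08 (SE) and above control with every statin. Nr1d2, which encodes REV-ERBβ, was at 0.28 ± 0.08 (SE) with 0.00 for pitavastatin and 0.38, 0.29 and 0.46 for the others. Nr1d1, its paralogue, was at -0.08.

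On the lower side stood Nfil3, a repressor that competes with Dbp and Tef for their sites, together with Arntl and Npas2. These 3 genes lie outside the naming rule and were taken up after their values were seen. Nfil3 had 8.07, 8.77 and 9.92 at the lowest, median and highest statin array, against 9.26, 9.44, 9.74 and 8.96 in control arrays. The statin arrays spanned the whole control range. The difference was -0.50 ± 0.22 (SE, unadjusted p = 0.0330, adjusted p = 0.999, limma), with -0.26, -0.59, -0.32 and -0.82 for pitavastatin, pravastatin, rosuvastatin and atorvastatin. Npas2 was at -0.25 ± 0.17 (SE) and Arntl at -0.24 ± 0.17 (SE), both below control with every statin, and Npas2 was at -0.07 without control 1. Per1, Cry1 and Clock lay between -0.09 and -0.05.

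**Figure D4:**
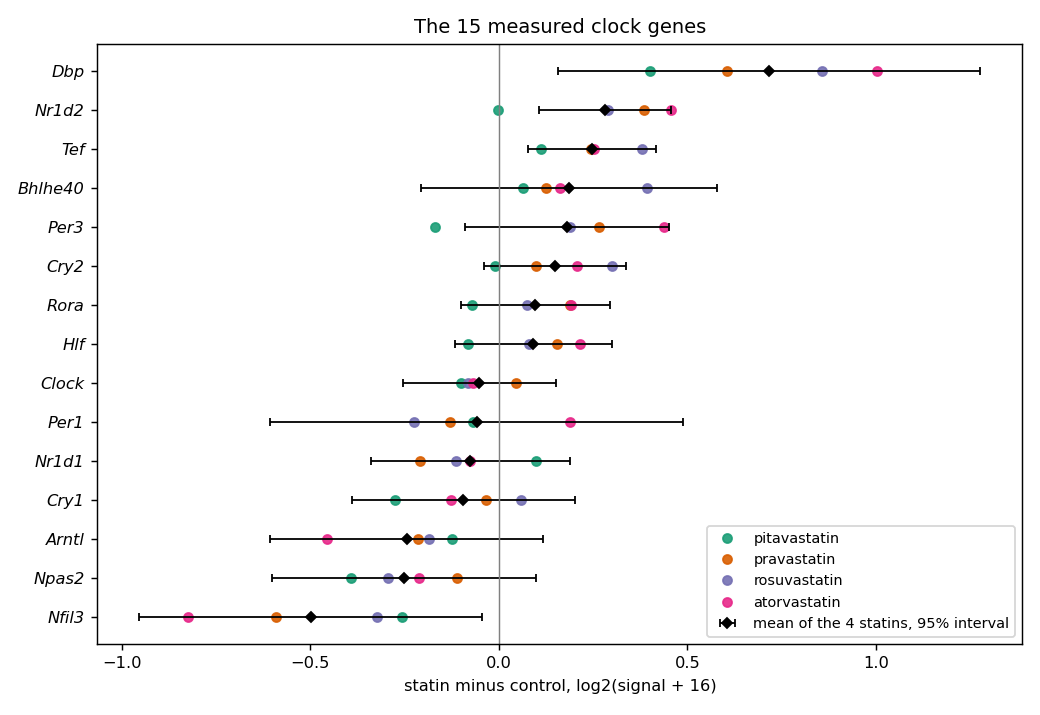
Log2 difference from control with each statin (coloured points) and for the mean of the 4 statins (black diamonds with the 95% interval from limma) for the 15 measured clock genes, ordered by the pooled difference. Dbp, Tef and Bhlhe40 lie above 0 and Nfil3, Npas2 and Arntl below 0 with every statin, and the interval does not reach 0 for Dbp, Nr1d2, Tef and Nfil3.

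Promoter sequences of 3 clock genes are shown because these genes stand at the ends of the list and hold the letters of the loop's own elements. They are RefSeq sequences of GRCm38.p6: Tef at chr15:81802423-81802672, plus strand, and Nfil3 at chr13:52981040-52981289, minus strand, each with the 250 bases before the start. For Arntl a stretch of 30 bases around the match is given, bases 19 to 48 from the start, chr7:113207529-113207558, plus strand. Capitals mark the E-box CACGTG in Tef and the ROR element core GTAGGTCA, or its reverse complement TGACCTAC, in Nfil3 and Arntl.
Tef: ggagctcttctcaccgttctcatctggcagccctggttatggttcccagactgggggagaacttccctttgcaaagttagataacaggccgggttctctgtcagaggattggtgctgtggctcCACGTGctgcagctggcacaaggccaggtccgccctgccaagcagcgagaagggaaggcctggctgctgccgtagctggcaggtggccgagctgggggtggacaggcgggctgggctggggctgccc
Nfil3: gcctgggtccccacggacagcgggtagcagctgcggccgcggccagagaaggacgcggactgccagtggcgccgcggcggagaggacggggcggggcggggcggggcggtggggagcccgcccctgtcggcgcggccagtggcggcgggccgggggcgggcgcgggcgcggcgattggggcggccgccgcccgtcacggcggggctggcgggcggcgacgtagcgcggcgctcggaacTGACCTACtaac
Arntl: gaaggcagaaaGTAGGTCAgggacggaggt
The E-box of Tef begins 127 bases before the start and the element of Nfil3 begins 12 bases before it. Searched on both strands, GTAGGTCA was in 0.621% of 32851 promoter windows and in 2 of the 14 clock genes with an entry, Nfil3 and Arntl. CACGTG was in 7.15% of the windows and in 3 of the 14, Tef, Cry1 and Per1. A gene with several starts has several windows and counts if any of them matches. The gene counts and the percents of windows are therefore not like measures. Of these, Tef lay at 0.25, Cry1 at -0.09 and Per1 at -0.06, so genes with the same letters had differences of both signs.

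Energy metabolism lay slightly below control as deposited and above it after centring, which shifts every list alike. Pitavastatin stood apart here, as it did in other lists. All 15 measured genes of fatty acid oxidation were below control, with a median of -0.06 (0.09 after centring) and 0 at an unadjusted p under 0.05, and 3 of the 15 were below with every statin. Acads, the short-chain acyl-CoA dehydrogenase, had the largest difference, at -0.20 ± 0.10 (SE), and was at -0.08 without control 3. In the citric acid cycle 14 of 15 and in the respiratory chain 26 of 28 were below control, with medians of -0.05 and -0.09 (0.10 and 0.06 after centring). The respiratory chain median was 0.10 with pitavastatin against -0.13, -0.15 and -0.13 with pravastatin, rosuvastatin and atorvastatin, and 1 of its 28 genes had the same sign with every statin. Relative to all tested probe sets, the respiratory chain median was -0.07 as deposited, -0.02 after quantile normalization and -0.07 after centring. That of fatty acid oxidation was -0.04, -0.03 and -0.04, and that of the citric acid cycle -0.04, -0.02 and -0.04. The split by pitavastatin was not particular to these lists. Sarcomere genes had medians of 0.14 with pitavastatin and -0.11, -0.14 and -0.11 with pravastatin, rosuvastatin and atorvastatin. Ribosomal protein genes had 0.15 against -0.05, -0.04 and -0.09. The 13 cardiomyocyte markers had the same pattern, with 11 below control, a median of -0.08 (0.08 after centring) and medians of 0.12, -0.12, -0.15 and -0.12 with pitavastatin, pravastatin, rosuvastatin and atorvastatin. Their summed signal was 242299 to 537792 in statin arrays and 356266 to 431845 in control arrays, and its part in these values was not tested.

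Targets of PPARα, the receptor that drives fat use in fasting, were below control in 9 of 13 genes, with a median of -0.09 (0.06 after centring). Angptl4, a secreted inhibitor of lipoprotein lipase, had the largest difference, at -0.74 ± 0.34 (SE, unadjusted p = 0.0445, adjusted p = 0.999, limma). Its statin arrays spread between 6.43 and 9.60 around a median of 7.66, and its control arrays read 9.17, 8.99, 7.30 and 8.12. Pitavastatin, pravastatin and rosuvastatin gave -0.75, -1.50 and -1.05 and atorvastatin gave 0.35, so the sign was not shared. Without control 1 the Angptl4 difference was -0.48. Pdk4, the kinase that shuts off pyruvate oxidation, was at -0.15 ± 0.16 (SE), also with atorvastatin on the other side, at 0.06.

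Smooth muscle transcripts held a high pair. Tagln, which encodes the actin-binding protein transgelin, read 8.51, 9.49 and 10.40 at the lowest, median and highest statin array, against 8.71, 8.57, 9.28 and 8.88 in control arrays. The groups overlapped in part, and the difference was 0.70 ± 0.20 (SE, unadjusted p = 0.00280, adjusted p = 0.999, limma), with 0.90, 0.38, 1.09 and 0.42 for pitavastatin, pravastatin, rosuvastatin and atorvastatin. Tpm2, β-tropomyosin, was at 0.46 ± 0.13 (SE), with 0.41, 0.27, 0.77 and 0.40. The 12 listed markers of smooth muscle and pericytes had 8 above and 4 below control and a median of 0.04, or -0.03 without control 2. The contractile markers Acta2 and Myh11, chosen here after their values were seen, were at 0.17 ± 0.22 (SE) and 0.05 ± 0.16 (SE). Without control 2 they were at -0.08 and -0.06, and without control 4 at 0.37 and 0.14. The summed signal of the 12 was 37014 to 49548 in statin arrays and 37631 to 45418 in control arrays, and its part in the Tagln value was not tested. Endothelial markers were above control in 10 of 12, with a median of 0.07, led by Flt1, a VEGF receptor, at 0.22 ± 0.09 (SE) and 0.00 with pitavastatin. Without control 4 that median was 0.01, and Flt1 was at 0.14 without control 3.

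Several stimulus-responsive, matrix and electrical genes lay on one side of control with every statin, some of them close to control with 1 statin. The immediate early genes Fos and Egr1, which rise within minutes of stress or stretch, were at -0.56 ± 0.31 (SE) and -0.47 ± 0.27 (SE), below control with every statin, in a list of 11 with 5 above and 6 below. Egr1 was at -0.30 without control 1 and -0.64 without control 2. In the matrix list 17 of 26 were below control, with a median of -0.07 (0.08 after centring). The basement membrane collagens Col4a1 and Col15a1 were below it with every statin, at -0.20 ± 0.08 (SE) and -0.17 ± 0.08 (SE). Col4a1 was at only -0.03 with pitavastatin and Col15a1 at -0.03 with rosuvastatin. Of 14 ion channel genes, 6 lay above and 8 below control. Kcnj5, a subunit of the acetylcholine-gated potassium channel, was at 0.20 ± 0.07 (SE), with 0.02 for pitavastatin. Kcnd3, which carries transient outward current, was at 0.19 ± 0.09 (SE), with 0.03 for pitavastatin. Kcne1, a partner of the slow delayed rectifier, was at -0.39 ± 0.20 (SE). The wall stress hormone gene Nppb was at -0.04, with a 95% interval of -0.38 to 0.31, at -0.25 without control 1 and at 0.07 without control 2.

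**Figure D5:**
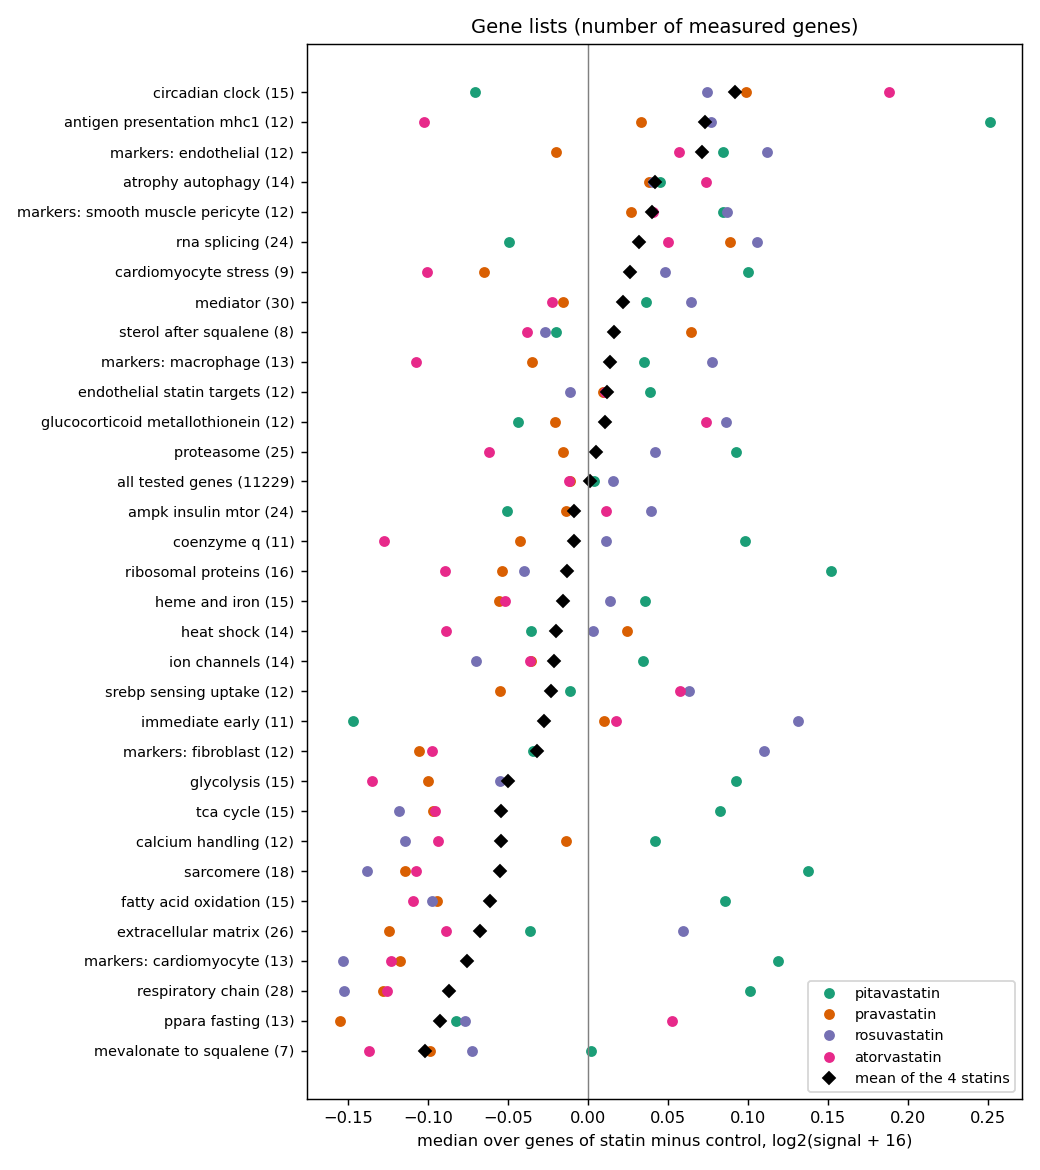
Median log2 difference from control over the genes of each of the plotted lists, all with at least 7 measured genes, for each statin (coloured points) and for the mean of the 4 statins (black diamonds), with the number of genes in brackets. The pooled medians lie between -0.10 and 0.09 as deposited, and those below 0 lie above it after centring. Pitavastatin is on the other side of 0 from the remaining statins for several lists. The respiratory chain, fatty acid oxidation, cardiomyocyte markers, sarcomere and ribosomal proteins are among them.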

How the data were processed

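Affymetrix arrays of mouse left ventricle were used, 1 per mouse, 4 per group. The deposited values are linear signal intensity per probe set, for which the submitters' processing notes name MAS5 with no version. Labelled cDNA was amplified from 100 ng of RNA, per the labels. Of 45101 probe sets, 64 controls were left out, 16 was added before log2, and the brighter 50% of the rest by mean over all arrays (signal 81.8) gave 22518, with 19002 carrying 1 symbol. Fold changes are on the log2(signal + 16) scale, which understates those of dim probe sets. limma 3.58.1 in R 4.3.3 fitted 5 group means on 20 arrays with a trended prior (15 residual and 4.23 prior degrees of freedom), and p-values were Benjamini-Hochberg adjusted over all tested probe sets at 0.05. The number of arrays limits the precision. The procedure was tested on simulated data.

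Named genes were the 12 higher and 12 lower single-symbol genes with the smallest unadjusted p among those sharing a sign with all 4 statins, up to 3 genes of smallest p from each of 40 gene lists, and a fixed set that included Hmgcs1, Sqle, Idi1, Insig1, Nos3, Klf2, Rhob, Angptl4 and Nppb. Some genes and lists of this rule are not reported here. The genes and lists were chosen with earlier results of these data known. Lists were read by counts and medians without a test. Other settings were quantile normalization, median centring, pseudocounts of 1 and 64, other filters, priors and weights, 1 probe set per gene, 2 groups, array brightness, replicate blocks, and leaving out arrays or statins. Same-numbered replicates of different groups had correlations of -0.54 to 0.69 between their deviations (40 pairs, 19 above 0.1), so the numbers were not taken as pairs. Promoters came from RefSeq.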

Additional observations from a re-analysis of the deposited data

Results flagged for a closer look

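Single arrays stood apart from the other 3 of their group in 19 of 380 groups of 4 arrays checked with Dixon's 95% criterion, and chance flags about 1 in 20 groups. Values are log2(signal + 16). Among the higher genes, Cbx5 was low in rosuvastatin 2, at 8.55, against 8.98 to 9.07 in the others of that group. Prkaa2 was low in rosuvastatin 3, at 8.90, and high in control 1, at 8.79 against 7.87 to 8.01 in the other control arrays. Among the lower genes, Ebpl was low in pitavastatin 1, at 6.97. Gpt was high in pravastatin 4, at 9.04, and low in control 1, at 9.08 against 9.40 to 9.41 in the other control arrays. Pigs was high in rosuvastatin 3, at 9.41, and low in atorvastatin 2, at 8.58.

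Among the mevalonate and prenylation genes, Hmgcs1 was low in control 2, at 12.69, and Fdps in pravastatin 2, at 6.66. Rhob was low in pravastatin 3, at 11.78, Pggt1b in pravastatin 2, at 10.54, and Icmt in atorvastatin 2, at 9.16. Elsewhere, Nppb was high in pravastatin 1, at 13.46 against 12.70 to 12.81, and Fos was low in atorvastatin 4, at 6.78 against 8.11 to 8.28. Acads was low in pravastatin 3, at 9.87, Med13l high in atorvastatin 3, at 11.45, and H2-K1 low in atorvastatin 2, at 10.56. The log2 3′/5′ ratio of the Actb control probe set was low in pravastatin 2, at 2.01 against 2.30 to 2.33.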

How the results depend on the processing

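The pooled count of 0 calls stayed at 0 under all 41 other settings except array weights (2 calls, Med1 and Pum2) and leaving out control 1, with 0 to 9 calls over the 20 single-array omissions. With the replicate block, whose numbers were not taken as pairs, it was 0 and the smallest adjusted p in limma was 0.400. Differences among the statins gave 135 calls with array weights, 3 with the replicate block, 2 with median signal as a covariate, 2 without the arrays of extreme median signal, and 0 to 2 when leaving out single arrays (1 without control 1, 2 without atorvastatin 2). The count of probe sets with a shared sign was 16613 without the filter, 3734 in the brightest 30%, 3316 with 1 probe set per gene and 12930 when pooling the 3 statins other than pitavastatin, and 6601 to 9791 when leaving out single arrays. The share of these above control was 54.6% in the brightest 30% and 32.7% without the filter. The number of probe sets with an unadjusted p under 0.05 ran between 484 and 1360 over single-array omissions, the highest without control 1. The cause of these changes was not tested, except that a filter or 1 probe set per gene changes how many are counted. The 24 leading genes kept their sign in all 962 values under other settings, and 3 of these values passed the test. Of the 147 probe sets followed, 88 turned or moved by over 1.5 times when some single array was left out, 0 of the 24 leading genes among them. Those 24 were chosen for a shared sign and a small p on the same arrays, which the other settings reuse. Their steadiness follows largely from that choice and is no support for them. List medians changed sign in 164 of 1680 values. Dim probe sets limit the reading of Cpox, Ebpl, Hexim2, Bicdl1, Orc4 and Atp5c1, and of Sqle and Fdps among the sterol genes.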

Other observations

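The Mediator complex, which links transcription factors to RNA polymerase II, had 30 measured subunits and partners, 18 above and 12 below control, with a median of 0.02. Med13l, a paralogue of the kinase module subunit Med13, read 11.17 at the median statin array, between 10.77 and 11.64, against 11.23, 10.69, 10.88 and 10.55 in control arrays. Its difference was 0.34 ± 0.10 (SE), with 0.02 for pitavastatin and 0.41, 0.55 and 0.39 for pravastatin, rosuvastatin and atorvastatin. Cdk8, the kinase of that module, was at 0.23 ± 0.10 (SE), with -0.10 for pitavastatin. The subunit gene Med23 was below control with every statin, at -0.20, -0.30, -0.28 and -0.21, and its pooled value was -0.15 without control 2. None of these passed the limma test (adjusted p = 0.999).

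Splicing factors were above control in 15 of 24, with Hnrnpa1 at 0.27 ± 0.12 (SE) and Hnrnpl at -0.28 ± 0.13 (SE), both with pitavastatin on the other side of 0, and Hnrnpl at -0.18 without control 4. Genes of MHC class I antigen presentation were above control in 10 of 12, with a median of 0.07 that was -0.02 without control 1. H2-K1, a class I heavy chain, was at 0.20 ± 0.09 (SE), with 0.35, 0.21, 0.26 and -0.02 for pitavastatin, pravastatin, rosuvastatin and atorvastatin, and 0.11 pooled without control 1. Genes of muscle atrophy and autophagy were above control in 9 of 14, 6 of them with every statin.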
